A study of Oryza sativa with 3 samples.

Results

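Chromosome 4 of rice is set apart cytologically by a short arm that is largely heterochromatic and rich in transposable elements, DNA that plants keep heavily methylated at cytosine. 5-Hydroxymethylcytosine (5hmC), an oxidised form of 5-methylcytosine, is made in animals by TET enzymes. Plants have no clear TET counterpart, and the amount and source of 5hmC in plant DNA are debated. The peaks described here are all those that the deposited lists place on chromosome 4. They number 420 of 3628 peaks in LYP9, 490 of 4077 in 93-11 and 285 of 2545 in PA64s, or 1195 of 10250 over the 3 lists. Of the peaks on the 12 nuclear chromosomes, chromosome 4 thus held 12.04% in LYP9, 12.3% in 93-11 and 11.9% in PA64s.

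The samples were genomic DNA from young panicles 3 to 4 mm long. LYP9 is a hybrid rice, 93-11 its pollen parent, an indica line, and PA64s its seed parent, a male-sterile line. There was 1 library for each, made by tagging 5hmC with an azide glucose and biotin and capturing it on streptavidin. The libraries held 10078296 tags in LYP9, 10007148 in 93-11 and 11948210 in PA64s. Peaks were called without an input library, so a peak marks a local excess of tags whatever its source. No differences between cultivars could be checked against replicates, and no test between them was made. Intervals are 95% intervals that cover counting error only, and they are too narrow to the extent that neighbouring peaks are not independent. Heights are pileups, the number of tags at a summit, each taken at the caller's fragment length. That length was 81 bp in LYP9 and PA64s and 83 bp in 93-11, beside a tag size of 81 bp and shearing to 200 to 300 bp. Pileups thus count tags and do not cover whole fragments. A scaled pileup is the pileup per 1000000 tags of the file header. The header total includes tags on the organelle sequences. The position of the centromere and the genome build are not given in the sources used here. The first 10 Mb therefore stand for the short arm and the part around the centromere, and everything beyond 10 Mb, up to the last peak end at 35.1 Mb, is called the rest.

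Peaks crowded into the first 10 Mb in all 3 lists. That stretch held 269 of the 420 LYP9 peaks (64.0%, 59.3 to 68.6), 297 of the 490 of 93-11 (60.6%, 56.1 to 65.0) and 170 of the 285 of PA64s (59.6%, 53.7 to 65.4). In LYP9 the density was 26.9 peaks per Mb (23.8 to 30.3) in the first 10 Mb and 6.02 (5.10 to 7.06) in the rest. In 93-11 it was 29.7 (26.4 to 33.3) and 7.70 (6.65 to 8.86), and in PA64s 17.0 (14.5 to 19.8) and 4.59 (3.79 to 5.51). The density of the first 10 Mb was therefore 4.47 times that of the rest in LYP9 (3.65 to 5.49), 3.86 times in 93-11 (3.21 to 4.65) and 3.71 times in PA64s (2.91 to 4.74).

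The excess was concentrated between 2 and 4 Mb. These 2 Mb held 147 LYP9 peaks, 153 of 93-11 and 101 of PA64s, which is 35.0%, 31.2% and 35.4% of those on the chromosome. Without this stretch, a comparison added after the values were seen, the ratio of densities was 2.53 in LYP9, 2.34 in 93-11 and 1.88 in PA64s. The window from 2 to 3 Mb held 91, 96 and 59 peaks in the same order of cultivars, and the window from 3 to 4 Mb held 56, 57 and 42. The median window of 1 Mb held 18 LYP9 peaks, 20 of 93-11 and 9.5 of PA64s in the first 10 Mb, against 4, 6.5 and 3 in the rest.

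Density fell further along the chromosome. Between 10 and 20 Mb there were 9.30 peaks per Mb in LYP9, 11.2 in 93-11 and 6.20 in PA64s. Beyond 20 Mb there were 3.85, 5.37 and 3.52. By the sum over the lists, the fullest windows of 1 Mb outside the first 10 Mb lay at 15 to 16 Mb, with 24 peaks in LYP9, 24 in 93-11 and 19 in PA64s, and at 22 to 23 Mb, with 14, 18 and 12. The window from 19 to 20 Mb held 10 peaks in LYP9 and 19 in 93-11 but 1 in PA64s. The window from 27 to 28 Mb held no peak in any list. Counts in the 36 windows followed each other closely, with a Spearman coefficient of 0.938 for LYP9 and 93-11, 0.805 for LYP9 and PA64s and 0.817 for 93-11 and PA64s. The windows share a chromosome and, in every list, the same mapping and peak calling, so these coefficients are a description.

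**Figure D1:**
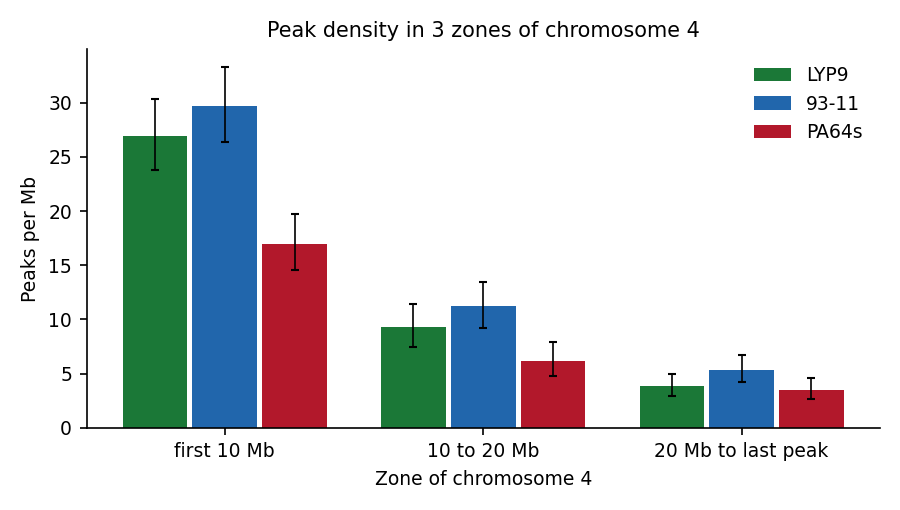
Bars give peaks per Mb (vertical axis) in LYP9, 93-11 and PA64s in 3 zones of chromosome 4, and error bars are exact 95% Poisson intervals, which cover counting error only. In each list the first 10 Mb carry the most peaks per Mb, 26.9 in LYP9, 29.7 in 93-11 and 17.0 in PA64s, and the part beyond 20 Mb the fewest, 3.85, 5.37 and 3.52.

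Among the 12 nuclear chromosomes the contrast within chromosome 4 was among the strongest, and chromosome 10 exceeded it. The first 10 Mb of chromosome 4 ranked 2 of 12 in peaks per Mb in each list, after chromosome 10 with 31.5 in LYP9, 33.2 in 93-11 and 25.1 in PA64s. Its ratio of first 10 Mb to rest also ranked 2 of 12 in each list, and over the other 11 chromosomes that ratio ran from 0.545 to 6.07 in LYP9, from 0.648 to 5.24 in 93-11 and from 0.521 to 7.47 in PA64s. The rest of chromosome 4, in contrast, ranked 9 of 12 in LYP9, 7 in 93-11 and 8 in PA64s. The cut at 10 Mb was chosen for chromosome 4 and applied to every chromosome alike. Last peak ends ran from 22.9 Mb on chromosome 9 to 43.0 Mb on chromosome 1, and the centromeres were not placed. The first 10 Mb thus need not be like parts of the different chromosomes, and the ranks do not compare short arms.

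**Figure D2:**
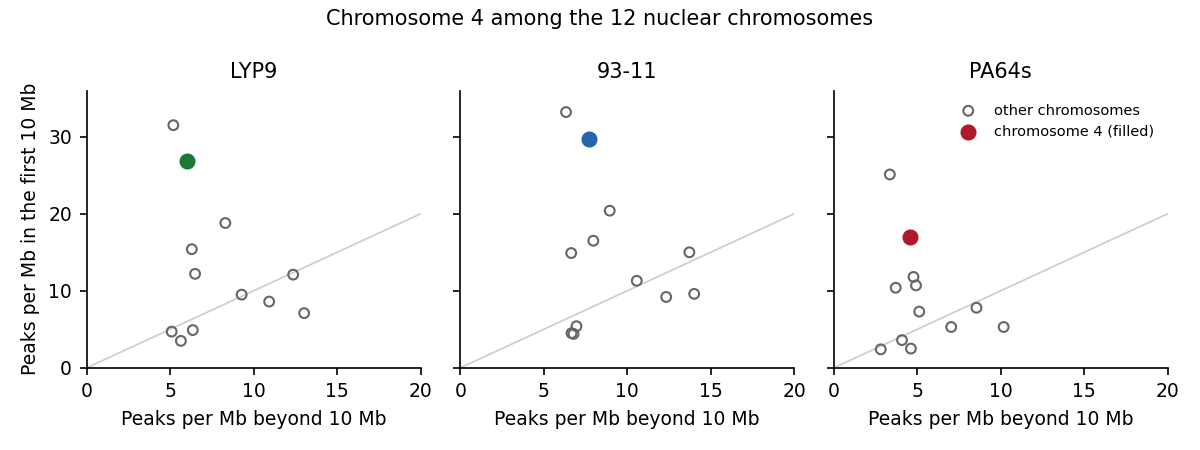
Each point is a nuclear chromosome, with peaks per Mb beyond 10 Mb on the horizontal axis and peaks per Mb in the first 10 Mb on the vertical axis, and the grey line marks equal densities. The same cut at 10 Mb is used for all chromosomes, whatever their length or centromere. Chromosome 4 (filled) has 26.9 against 6.02 peaks per Mb in LYP9, 29.7 against 7.70 in 93-11 and 17.0 against 4.59 in PA64s, and chromosome 10 is the only open point above it in each panel.

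The hybrid had fewer peaks than 93-11 and more than PA64s in every zone, and in the first 20 Mb its number was closer to that of 93-11. Over the 12 nuclear chromosomes the order was the same, with 3489 peaks in LYP9, 3970 in 93-11 and 2396 in PA64s. The order is therefore not particular to chromosome 4. LYP9 had 0.906 times as many peaks as 93-11 in the first 10 Mb (0.765 to 1.07) and 0.782 times as many in the rest (0.628 to 0.973). Against PA64s it had 1.58 times as many in the first 10 Mb (1.30 to 1.93) and 1.31 times as many in the rest (1.02 to 1.69). 93-11 had 1.75 times as many as PA64s in the first 10 Mb (1.44 to 2.12) and 1.68 times as many in the rest (1.33 to 2.13). Beyond 20 Mb its number was closer to that of PA64s, with 58 peaks in LYP9, 81 in 93-11 and 53 in PA64s. There the ratio of LYP9 to 93-11 was 0.716 (0.502 to 1.02) and that of LYP9 to PA64s 1.09 (0.741 to 1.62), so that neither interval left out equal numbers.

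Gaps between neighbouring peaks were shorter in the first 10 Mb than beyond it. The median gap from the end of a peak to the start of the next was 5.73 kb in LYP9 (3.28 to 9.06), 5.34 kb in 93-11 (2.90 to 8.05) and 6.36 kb in PA64s (3.79 to 18.0). In the rest it was 21.4 kb in LYP9 (4.84 to 48.1), 24.3 kb in 93-11 (10.5 to 48.9) and 63.1 kb in PA64s (17.0 to 109.6). The size of these medians depends on how close peaks are counted. With peaks of a list within 500 bp merged, they were 15.0, 13.1 and 21.2 kb in the first 10 Mb, in the same order of cultivars, and 36.9, 50.3 and 79.3 kb in the rest, so that the first 10 Mb kept the shorter gaps. Gaps over 100 kb made up 11.6% of those in the first 10 Mb of LYP9, 9.80% in 93-11 and 15.4% in PA64s, against 30%, 32.3% and 43.0% in the rest.

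Spacing was not even within either part, because many peaks came in chains. A chain is a row of peaks each within 1 kb of the next. In the first 10 Mb, chains took in 51.7% of peaks in LYP9 (45.5 to 57.8), 52.5% in 93-11 (46.7 to 58.3) and 46.5% in PA64s (38.8 to 54.3). In the rest they took in 35.1% (27.5 to 43.3), 34.7% (28.0 to 41.9) and 23.5% (16.1 to 32.3). Over the whole chromosome, 29.4% of gaps in LYP9 (25.04 to 33.97), 29.9% in 93-11 (25.8 to 34.1) and 23.9% in PA64s (19.1 to 29.3) were at most 1 kb. The other 11 nuclear chromosomes had 25.02%, 25.7% and 25.6%. These pooled levels lay at the lower edge of the chromosome 4 intervals in LYP9 and 93-11, and within the interval in PA64s. Since the intervals are too narrow, no difference is read from this. Counted from the longest, the median gap of chromosome 4 ranked 9 of 12 in LYP9, 8 in 93-11 and 4 in PA64s.

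The longest chains stood at the same place in all 3 lists. Between 2354082 and 2358305 there were 9 peaks in LYP9, 9 in 93-11 and 10 in PA64s, with pileups of 47 to 97 tags in LYP9, 51 to 106 in 93-11 and 45 to 85 in PA64s. A second place, around 2635014 to 2637534, held chains of 6 peaks in LYP9, 7 in 93-11 and 6 in PA64s. At 3182182 to 3186615, 93-11 had 9 peaks in 1 chain, where the longest chain of LYP9 had 6 and that of PA64s had 5. At the other extreme, the longest stretches without a peak in any list ran from 19633621 to 20787413, over 1154 kb, from 26987208 to 28025229, over 1038 kb, and from 17984779 to 18788499, over 804 kb. All of these lay beyond 10 Mb.

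**Figure D3:**
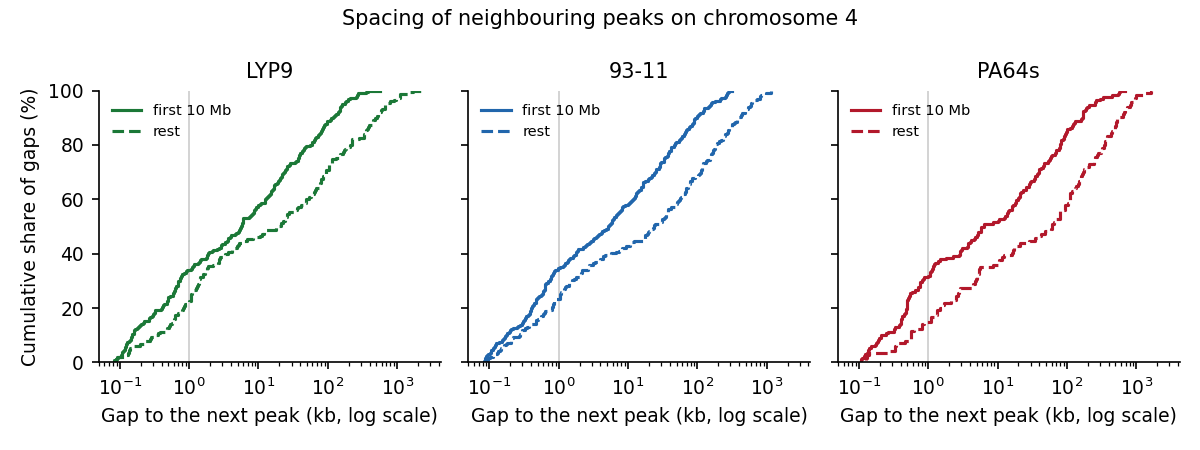
Curves give the cumulative share of gaps between neighbouring peaks of chromosome 4 (vertical axis, in percent) up to a given length (horizontal axis, in kb on a log scale), with the first 10 Mb as a solid and the rest as a dashed line, and the grey line at 1 kb. The solid curve lies to the left in each list, with medians of 5.73 kb against 21.4 kb in LYP9, 5.34 kb against 24.3 kb in 93-11 and 6.36 kb against 63.1 kb in PA64s.

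Peak length differed little between the parts. In the first 10 Mb the median was 104 bp in LYP9 (97 to 114), 113 bp in 93-11 (107 to 121) and 104 bp in PA64s (98 to 113). In the rest it was 107 bp (98 to 116), 106 bp (97 to 116) and 108 bp (100 to 119). No peak was shorter than the caller's fragment length, 81 bp in LYP9 and PA64s and 83 bp in 93-11. The medians lie not far above this floor, which limits how much they could differ. Peaks of at least 200 bp, as long as the shortest sheared fragments aimed at, were 15.0% of those on the chromosome in LYP9, 15.1% in 93-11 and 15.1% in PA64s. The longest were a peak of 675 bp in LYP9, from 3226802 to 3227476 with 71 tags, a peak of 919 bp in 93-11, from 29756314 to 29757232 with 29 tags, and a peak of 654 bp in PA64s, from 22657710 to 22658363 with 41 tags. The longest peaks were thus not the highest.

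Peaks of the crowded part were not higher in the hybrid or in 93-11. The median scaled pileup was 2.28 in the first 10 Mb of LYP9 (2.18 to 2.68) and 2.38 in the rest (2.18 to 2.68). It was 2.50 (2.40 to 2.70) and 2.40 (2.10 to 2.60) in 93-11. In PA64s it was 2.22 in the first 10 Mb (1.92 to 2.43) and 1.84 in the rest (1.76 to 2.01), and these intervals overlapped too. Fold enrichment over the background that the caller set for each peak had medians of 9.08 and 8.60 in LYP9, 8.86 and 8.45 in 93-11, and 7.46 and 7.42 in PA64s, with the first 10 Mb given first in each pair.

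The background behind each peak can be read as its pileup divided by its fold enrichment. Its lowest value on the chromosome equalled the caller's genome-wide level, MACS's fragment length divided by the effective genome size, which on the scale of 1000000 tags is 0.208 in LYP9 and PA64s and 0.213 in 93-11. The background was within 1% of that level at 44.5% of LYP9 peaks (39.7 to 49.4), 46.5% of 93-11 peaks (42.0 to 51.1) and 41.4% of PA64s peaks (35.6 to 47.4). On the other 11 nuclear chromosomes the shares were 46.3%, 44.7% and 41.2%. The remaining peaks stood in surroundings with more tags than the genome-wide level. PA64s differed between the parts, with 33.5% of its peaks at the genome-wide level in the first 10 Mb (26.5 to 41.2) and 53.0% in the rest (43.5 to 62.4).

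The windows of 100 kb from 2.6, 2.3 and 3.1 Mb, the fullest on the chromosome, stood on such a raised background in all lists. With no control library, the caller sets this background from tags of the same library over a range of 10000 bp. Neighbouring peaks therefore add to it, so crowding and a raised background are not separate observations. The window from 2.6 to 2.7 Mb held 23 peaks in LYP9, 27 in 93-11 and 17 in PA64s, and the median background there was 4.31, 4.62 and 3.36 times the genome-wide level. From 2.3 to 2.4 Mb there were 19, 16 and 16 peaks at 6.37, 6.54 and 5.71 times that level. From 3.1 to 3.2 Mb there were 16, 16 and 15 peaks at 2.49, 4.47 and 2.11 times. The neighbouring window from 2.7 to 2.8 Mb, also among the 5 fullest by merged overlapping peaks, was unlike these. It held 7 peaks in LYP9, 14 in 93-11 and 3 in PA64s, with pileups of at most 31 tags. Backgrounds there were 1.30, 1.30 and 1.00 times the genome-wide level.

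A stretch of 14.6 kb near 19.2 Mb stood out from all others on the chromosome. Between 19219155 and 19233805 there were 10 peaks in LYP9, with 63 to 113 tags, and 16 in 93-11, with 68 to 117 tags. PA64s had no peak there, and its nearest one lay 408622 bp from the highest of these peaks. These heights are among the greatest of the chromosome, yet the fold enrichment was only 1.73 to 2.97 in LYP9 and 1.64 to 2.89 in 93-11. The background under the peaks was 19.1 times the genome-wide level in LYP9 (range 10.1 to 29.0) and 24.1 times in 93-11 (11.0 to 33.5), so the whole stretch, and not the summits alone, carried many tags. Of nuclear peaks with a fold enrichment under 3, chromosome 4 held 13 of 23 in LYP9, 18 of 31 in 93-11 and 1 of 10 in PA64s, and this stretch alone held 10 of the LYP9 and 16 of the 93-11 peaks. No other nuclear chromosome had more than 5 such peaks in LYP9, 4 in 93-11 or 4 in PA64s. The cutoff of 3 was chosen after the values were seen and lies just above the highest fold enrichments of the stretch. All of its peaks therefore count by construction, and these counts only describe where such peaks lay.

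Windows of 100 kb that were rich in one parent and empty in the other were found in 1 direction only. Those with at least 5 peaks in 93-11 and none in PA64s numbered 4 of 33, and they began at 0.9, 3.0, 16.9 and 19.2 Mb. In none of the 13 windows with at least 5 PA64s peaks was 93-11 or LYP9 empty. The list of 93-11 is the longer, with 490 peaks on the chromosome against 285 in PA64s, which bears on this direction. Such windows were not counted on the other chromosomes. The hybrid had at least 5 peaks in each of the 4 windows. Apart from the window from 19.2 Mb, which the naming rule chose, they were picked out after their values were seen.

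The 4 windows were not of 1 kind. The window from 0.9 Mb held 9 peaks in LYP9 and 10 in 93-11, with 19 to 41 and 22 to 49 tags, on a background of 4.95 and 5.08 times the genome-wide level. Its median fold enrichment was 3.49 in LYP9 and 3.17 in 93-11. The window from 3.0 Mb held 6 peaks in LYP9 and 10 in 93-11 with no more than 21 and 24 tags, and there the background did not exceed 1.00 times the genome-wide level at any peak. Its median fold enrichment was 8.36 and 8.21. The window from 16.9 Mb held 5 and 7 peaks of 19 to 27 and 24 to 32 tags on a background of 1.38 and 1.59 times that level, with a median fold enrichment of 8.16 and 8.29.

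The next comparison asked how often the 3 lists had a peak at the same place, by an overlap of at least 1 bp. Of the 420 LYP9 peaks, 321 were found in 93-11 (76.4%, 72.1 to 80.4), beside 71.8% of LYP9 peaks over all sequences. In PA64s 187 of them were found (44.5%, 39.7 to 49.4), beside 47.4%. Of the 490 peaks of 93-11, 322 were found in LYP9 (65.7%, beside 63.7%) and 193 in PA64s (39.4%, beside 40.5%). Of the 285 PA64s peaks, 187 overlapped one of LYP9 (65.6%, beside 67.7%) and 67.4% overlapped one of 93-11, beside 65.3%. The share of LYP9 peaks found in 93-11 lay just above the level of the whole list, and the others were close to it. The lists differ in length, which bears on every one of these shares.

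Within the chromosome, the shares were higher in the first 10 Mb in 5 of the 6 directions, and for PA64s peaks the intervals of the parts did not overlap. In the first 10 Mb, 76.5% of PA64s peaks had a counterpart in LYP9 (69.4 to 82.6) and 76.5% in 93-11 (69.4 to 82.6). In the rest these shares were 49.6% (40.1 to 59.0) and 53.9% (44.4 to 63.2). Of the 170 PA64s peaks in the first 10 Mb, 101 lay between 2 and 4 Mb. The shares were not recomputed without that stretch, so the separation may not hold for the whole first 10 Mb. Of the LYP9 peaks, 48.7% were found in PA64s in the first 10 Mb (42.6 to 54.8) and 37.1% in the rest (29.4 to 45.3). Of the 93-11 peaks, 44.1% (38.4 to 50.0) and 32.1% (25.6 to 39.2) were found in PA64s, and 69.4% (63.8 to 74.6) and 60.1% (52.8 to 67.1) in LYP9. In these 3 directions the intervals of the parts overlapped. The share of LYP9 peaks found in 93-11 was 75.8% (70.3 to 80.8) in the first 10 Mb and 77.5% (70.0 to 83.9) in the rest.

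Overlapping peaks of the 3 lists were merged into 659 regions, and 171 of these held a peak of every list (25.9%, 22.6 to 29.5), beside 25.3% of the regions on the 12 nuclear chromosomes. In the first 10 Mb 118 of 385 regions were common to all lists (30.6%, 26.1 to 35.5), and in the rest 53 of 274 (19.3%, 14.8 to 24.5). Without the stretch from 2 to 4 Mb the share in the first 10 Mb was 25.4% (19.3 to 32.3), an interval that overlapped that of the rest. PA64s-only regions ran the other way, with 30 in the first 10 Mb (7.79%, 5.32 to 10.9) and 49 in the rest (17.9%, 13.5 to 22.9). Regions in LYP9 and 93-11 without PA64s numbered 82 (21.3%) and 61 (22.3%) in these parts. Those in LYP9 and PA64s without 93-11 numbered only 10 and 3, and those in both parents without the hybrid 10 and 9. The 93-11-only regions were 81 and 68, and the LYP9-only regions 54 and 31. Over the whole chromosome, regions in LYP9 and 93-11 without PA64s made up 21.7% (18.6 to 25.05), beside 19.1% on the 12 nuclear chromosomes. Those in LYP9 and PA64s alone were 1.97%, beside 2.79%, and those in both parents alone 2.88%, beside 2.22%. The LYP9-only regions were 12.9%, beside 14.7%, the 93-11-only regions 22.6%, beside 24.1%, and the PA64s-only regions 11.99%, beside 11.9%. None of these shares of chromosome 4 lay further from the general level than its counting interval.

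**Figure D4:**
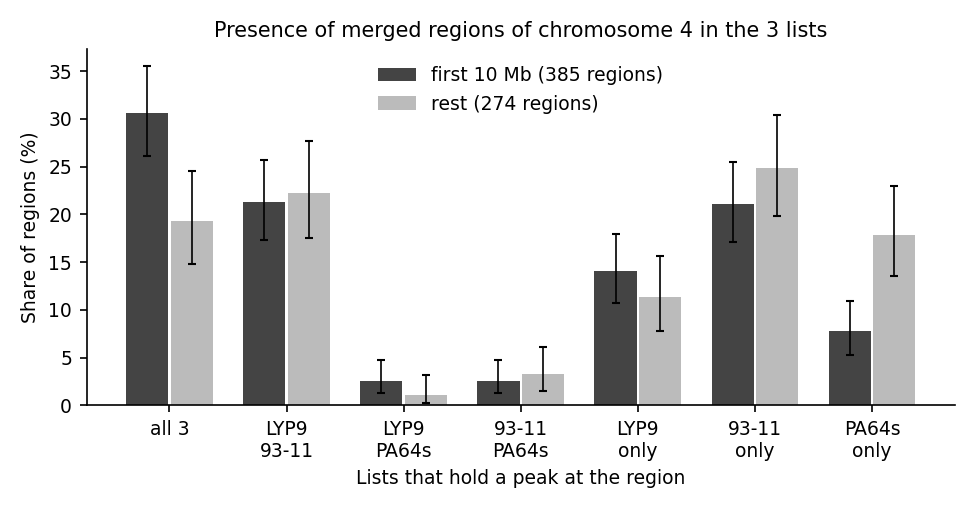
Bars give the share of merged regions (vertical axis, in percent) by the lists that hold a peak there (horizontal axis), for the first 10 Mb (dark) and the rest of chromosome 4 (light), and error bars are exact 95% binomial intervals. Regions in all lists are 30.6% of the first 10 Mb and 19.3% of the rest, and PA64s-only regions 7.79% and 17.9%.

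Regions common to all lists had the highest pileups at the median. Their median pileup was 34 tags in LYP9, 37 in 93-11 and 31 in PA64s, against 17 in the LYP9-only, 18 in the 93-11-only and 18 in the PA64s-only regions. Of the 143 regions in LYP9 and 93-11 without PA64s, 76 stood above the median scaled pileup of PA64s peaks on the chromosome, 2.01, in both lists. This count was not made on the other chromosomes, so it does not show a trait of chromosome 4. The nearest PA64s peak to these 143 regions was a median of 24.9 kb away, and 16 of them had one within 500 bp. Summits of common regions were a median of 3 bp apart between LYP9 and 93-11, 4 bp between LYP9 and PA64s and 6 bp between 93-11 and PA64s. In the same order, 73.7%, 64.9% and 65.5% lay within 10 bp, and the largest distances were 297, 297 and 370 bp. Common regions are defined by overlap of short peaks, which by itself keeps summits close.

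As a hybrid of the other two cultivars, LYP9 carries a copy of chromosome 4 from each parent, and its peaks were sorted by the parent in which they were also found. Of its 420 peaks, 173 were found in both parents (41.2%, beside 40.7% of LYP9 peaks on the 12 nuclear chromosomes) and 148 in 93-11 only (35.2%, beside 31.2%). A further 14 were found in PA64s only (3.33%, beside 4.64%) and 85 in neither (20.2%, beside 23.5%). All 4 shares were within their counting intervals of the general level. Seen from the parents, LYP9 had a peak at 148 of 297 peaks of 93-11 absent from PA64s (49.8%, 44.0 to 55.7), beside 44.5% over the nuclear chromosomes. It had one at 14 of 93 PA64s peaks absent from 93-11 (15.1%, 8.48 to 24.0), beside 19.5%. In the first 10 Mb these numbers were 85 of 166 for 93-11 (51.2%) and 10 of 40 for PA64s (25%, 12.7 to 41.2). In the rest they were 63 of 131 (48.1%) and 4 of 53 (7.55%, 2.09 to 18.2).

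On chromosome 4 the share differed with height for 93-11 peaks, while for PA64s peaks the intervals of the height classes overlapped. The same split was not made on the other chromosomes. Among peaks above their own list's median pileup, 74 of 102 of the 93-11 peaks absent from PA64s were found in LYP9 (72.5%, 62.8 to 80.9) and 3 of 10 of the PA64s peaks absent from 93-11 (30%, 6.67 to 65.2). At or below the median the numbers were 74 of 195 (37.9%, 31.1 to 45.2) and 11 of 83 (13.3%, 6.81 to 22.5). Few PA64s peaks that were absent from 93-11 were high, so the comparison of high peaks rests on 10 of them.

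Scaled pileups could be set side by side at the 171 common regions. A region enters only if it passed the threshold in all 3 libraries, so large differences are missing by construction. LYP9 stood at a median of 0.938 times 93-11 (0.915 to 0.961) and 1.26 times PA64s (1.22 to 1.32), and 93-11 at 1.33 times PA64s (1.27 to 1.37). These ratios depend on the scaling by header totals, which include organelle tags. Before scaling, the median pileups at these regions were closer, with 34 tags in LYP9, 37 in 93-11 and 31 in PA64s. After scaling, LYP9 was higher than PA64s at 148 of 171 regions, a count not made on the other chromosomes. LYP9 was higher than PA64s by at least 1.5 times at 40 of the 171 (23.4%), beside 29.4% of the common regions of all nuclear chromosomes. It was lower by as much at none, beside 1.13%. The corresponding share for 93-11 over PA64s was 48 of 171 (28.1%), beside 37.7%, and 93-11 was lower by as much at none, beside 0.638%. Between LYP9 and 93-11, 2 regions were higher in LYP9 by this factor (1.17%) and 4 lower (2.34%), beside 0.709% and 2.06%.

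The hybrid lay between its parents at 100 of the 171 regions (58.5%, beside 58.1% of the common nuclear regions), above both at 51 (29.8%, beside 31%) and below both at 20 (11.7%, beside 10.9%), close to the general level in each class. It was 1.09 times the mean of the parents at the median region. The largest excess over 93-11 was 2.22 times, from 1099908 to 1100227, with 38 tags in LYP9 and 17 in 93-11. The lowest ratio was 0.530, from 3737557 to 3737753, with 24 and 45 tags. Over PA64s the ratio was highest from 28828125 to 28828444, with 46 tags in LYP9 and 25 in PA64s, a ratio of 2.18 once scaled to depth.

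The margin over PA64s had lower medians towards the end of the chromosome, but the intervals of the zones overlapped. The median ratio of LYP9 to PA64s was 1.30 in the first 10 Mb (1.24 to 1.35), 1.23 from 10 to 20 Mb (1.15 to 1.44), 1.19 from 20 to 30 Mb (1.00 to 1.57) and 0.860 beyond 30 Mb (0.754 to 1.34). These zones held 118, 30, 13 and 10 common regions. PA64s was the highest of the 3 libraries at 6 of the 10 regions beyond 30 Mb, and at 4 of the 161 others. Of these 6 regions, 5 lie between 32699002 and 32706849, so the median below 1 rests on few places.

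**Figure D5:**
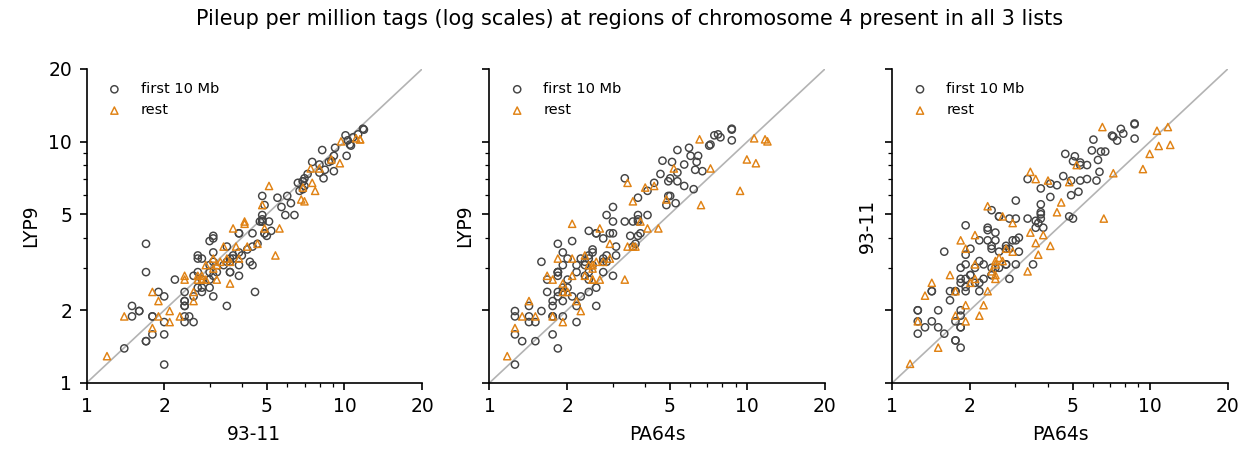
Each symbol is a region of chromosome 4 present in all 3 lists, with the scaled pileup (tags per 1000000) of 1 library on each log axis, circles for the first 10 Mb, triangles for the rest, and the grey line marks equal values. LYP9 and 93-11 lie along the line, with a median ratio of 0.938, both lie mostly above PA64s, with 1.26 and 1.33, and 6 of the 10 regions beyond 30 Mb, all triangles, are highest in PA64s.

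The highest common regions of the first 10 Mb showed the prevailing order of the libraries. The region from 2635436 to 2635586 reached 114 tags in LYP9, 118 in 93-11 and 104 in PA64s, which is 11.3, 11.8 and 8.70 as scaled pileups. The region from 3183847 to 3183966 reached 113, 119 and 104 tags. Next came the region from 2629611 to 2630003 with 108, 113 and 92 tags, and the region from 8197032 to 8197503 with 105, 108 and 94. The last of the 5, from 2361509 to 2361625, had 102, 103 and 104 tags. All 5 had scaled pileups of 10.1 or more in LYP9, of 10.3 or more in 93-11 and of 8.70 or less in PA64s. Fold enrichments of the 5 ran from 10.3 to 17.7 in LYP9, from 10.3 to 18.0 in 93-11 and from 9.73 to 14.6 in PA64s.

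In the rest of the chromosome, 3 of the 5 highest common regions had their highest scaled pileup in PA64s. The region from 30960643 to 30961024 had 101 tags in LYP9, 97 in 93-11 and 143 in PA64s, or scaled pileups of 10.02, 9.69 and 11.97, with fold enrichments of 23.8, 22.6 and 35.8. A group of 5 common regions lay within 3.08 kb from 32699002 to 32702079. The highest of them, from 32700740 to 32701093, had 103 tags in LYP9, 115 in 93-11 and 140 in PA64s, or 10.2, 11.5 and 11.7 when scaled. Its neighbour from 32699999 to 32700219 had 104, 111 and 127 tags, or 10.3, 11.1 and 10.6 when scaled, and was thus highest in 93-11. The region from 32699002 to 32699129 had 82, 96 and 129 tags, or 8.14, 9.59 and 10.8 when scaled. On the other hand the region from 23768704 to 23768896 had 103 tags in LYP9, 115 in 93-11 and 78 in PA64s, the order seen in the first 10 Mb.

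Regions found in some lists only included some of the highest pileups of LYP9 and 93-11, many of them in the stretch near 19.2 Mb. The highest pileup of each list, however, was in a common region. In PA64s the scaled pileup reached 11.97 in common regions and at most 4.69 in the others. Both of the highest regions in LYP9 and 93-11 without PA64s lay in it, from 19223462 to 19223990 with 113 and 117 tags and from 19228163 to 19228254 with 92 and 112. So did the highest LYP9-only region, from 19229616 to 19229754 with 89 tags, and the 3 highest 93-11-only regions, with 105, 97 and 97 tags. The LYP9-only region lay 309 bp from a peak of 93-11. The next LYP9-only regions, from 3184182 to 3184271 with 55 tags and from 15551504 to 15551585 with 41, lay 142 bp and 1111 bp from the nearest peak of 93-11.

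Regions of the remaining patterns were lower. In LYP9 and PA64s without 93-11, the highest were from 2359364 to 2359464, with 65 tags in LYP9 and 55 in PA64s, and from 2355845 to 2355963, with 48 and 45. The nearest peaks of 93-11 were 742 bp and 105 bp away. In both parents without the hybrid, they were from 3185294 to 3185378, with 47 tags in 93-11 and 46 in PA64s, and from 15552682 to 15552789, with 42 and 47. A LYP9 peak lay 180 bp from the first and 592 bp from the second. The PA64s-only region from 32688822 to 32688928, with 56 tags and a fold enrichment of 22.6, was the most isolated of the named ones, with the nearest peak of either other list about 10.1 kb away. The next, from 2354082 to 2354163 with 53 tags, lay 255 bp from a peak of 93-11, and the one from 3175226 to 3175383 had 32 tags.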

How the data were processed

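The submitters' processing notes name BWA 0.5.8 as the aligner. No source used here names the genome build. Per the file headers, the authors called peaks in each library separately with MACS 2.0.9, with no control file, a cutoff of 0.01 on the q-value, an effective genome size of 390000000 bp and a fragment length d of 81, 83 and 81 bp in LYP9, 93-11 and PA64s. The deposited pileup is a coverage signal in whole tags, not scaled to depth by the authors. The deposited fold enrichment is the ratio of pileup to the background of the same library, and the deposited −log10 p and −log10 q are as MACS wrote them.

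From these lists, chromosome 4 was selected by name, pileups were scaled to 1000000 tags of the header, and peaks were compared by overlap. Regions are merged overlapping peaks, with the highest pileup per list. Shares carry exact Clopper-Pearson intervals, densities exact Poisson intervals, and medians order-statistic intervals, all at 95%. Ratios of counts and densities carry intervals from the exact binomial. The tag totals set the depth behind each list.

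Named were the 5 common regions per part and the 2 per pair of lists ranking highest by pileup percentile, averaged over the lists that hold them, the 3 highest per single list, the 5 fullest windows of 100 kb, the 3 longest gaps and the longest peak per list. The members, the 10 Mb boundary and these rules were chosen with earlier results of these data known. Zones at 20 and 30 Mb, the stretch from 2 to 4 Mb, chains within 1 kb, and fold enrichment under 3 were chosen after the values were seen. The assembly of the gene table at hand could not be matched to the peak files, so no gene or sequence is given. Python 3.11.15, numpy 2.4.6, pandas 2.3.3, scipy 1.17.1 and matplotlib 3.10.9 were used, and the routines were tested on simulated lists.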

Additional observations from a re-analysis of the deposited data

How the results depend on the processing

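No paired analysis was possible because each cultivar had 1 library. Of the 69 values recomputed with other boundaries, thresholds or overlaps, 59 stayed within the counting interval of the value reported. Taking the first 8 or the first 12 Mb in place of the first 10 Mb moved none of the 11 values recomputed for each. With 12 Mb, however, the intervals of the share of common regions overlapped between the parts, at 25.02 to 33.9 and 15.0 to 25.6. Merging peaks of a list within 500 bp lengthened the median gap in the first 10 Mb to 15.0 kb in LYP9, 13.1 kb in 93-11 and 21.2 kb in PA64s, and in the rest to 50.3 kb in 93-11, since neighbours in chains then count once. With an overlap of at least 50% of both peaks, 69.8% of LYP9 peaks were found in 93-11. With a distance of up to 500 bp, 82.1% were found in 93-11 and 51.2% in PA64s, and 57.2% of the 93-11 peaks absent from PA64s were found in LYP9. With a −log10 p of at least 10 in every list, 49.7% of LYP9 peaks were found in PA64s. Under that threshold 25.99% of regions in the rest were common to all lists (19.7 to 33.1), where the first 10 Mb had 35.1% (29.6 to 40.9). Among alternatives added after the values were seen, leaving out the stretch from 2 to 4 Mb gave density ratios of 2.53 in LYP9, 2.34 in 93-11 and 1.88 in PA64s and a share of common regions of 25.4% in the first 10 Mb. Leaving out the windows from 0.9 and 19.2 Mb moved none of the 5 values tested. The lowest pileup on chromosome 4 was 11 tags in each list, and a peak missing from a list shows only that the threshold was not passed there.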
